A study of Mus musculus with 4 samples.

Results

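Imprinted genes are expressed mainly from the copy inherited from 1 parent, because DNA methylation laid down in the egg or sperm marks a control region in each cluster. Many of them set growth before and after birth: paternally expressed genes such as Igf2 tend to promote it and maternally expressed genes such as Grb10, Igf2r and Cdkn1c tend to restrain it. Several clusters pair a protein-coding gene with a long noncoding RNA made from the other parental copy, and many of these genes are turned down after birth as tissues stop growing. Here 33 imprinted genes, chosen by name, were followed in endothelial cells of the mouse retina. All 33 were found among the 54446 genes of the deposited table, in 15 imprinted domains. By general knowledge, 12 are maternally expressed, 20 are paternally expressed, and Gnas makes transcripts from either copy. The libraries report the summed RNA of both copies, so no value below says which copy was read.

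The study sorted endothelial cells by flow cytometry from retinas of C57BL/6 mice at postnatal day 16, and sequenced RNA from 100 cells per library. The control group, with genotype given as control, has 2 libraries, and the group titled Zeb1-CKO has 2. Zeb1 is a zinc-finger repressor of epithelial genes. The titles name a conditional knockout and the genotype field a knockdown. The labels used here state neither the Cre driver, nor the deleted exons, nor how many animals gave each library. The comparison asks how expression in these cells differs when Zeb1 is targeted. The labels do not state whether each library is from its own animals. The p-values therefore describe the spread among these 4 samples, and that spread may be technical. Values are FPKM, fragments counted per kilobase of each transcript and relative to the total of the library, so levels can be compared between genes.

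Estimated depth ranged from 11.2 to 22.0 M fragments, with control 2 the shallowest. The targeted gene Zeb1 was at 10.7 and 11.1 FPKM in control libraries, against 8.66 and 7.07 FPKM in Zeb1-CKO libraries (limma adjusted p = 0.235). This value sums all exons of the gene, and the labels do not state which of them, if any, were deleted. The 10 endothelial markers summed to 3914 to 4823 FPKM, with Cldn5 the most abundant. The 10 pericyte markers summed to 2493 and 2022 FPKM in control libraries, against 1725 and 1928 FPKM in Zeb1-CKO libraries, led by Rgs5. The sorted cells thus carried RNA of pericyte genes at high levels, and fewer cells of a type and less RNA per cell cannot be told apart in such libraries. Fibroblast markers summed to 75.4 to 80.8 FPKM, led by Pdgfra and Col3a1 (means of 31.0 and 18.0 FPKM). Lum, of the same list, was at 0 in 3 libraries. Neuron markers summed to 8.88 to 16.7 FPKM, and rod and cone markers to 9.72 to 89.0 FPKM. Marker sums of Müller glia and astrocytes were 302 to 360 FPKM, those of amacrine and ganglion cells 18.4 to 28.2 FPKM and those of pigment epithelium 1.87 to 3.39 FPKM. Smooth-muscle markers summed to 628 and 494 FPKM in control libraries, against 328 and 404 FPKM in Zeb1-CKO libraries. Red-cell markers summed to 2727 and 3298 FPKM in control libraries, against 745 and 1409 FPKM in Zeb1-CKO libraries, and myeloid markers to 25.5, 80.1, 21.7 and 9.55 FPKM in the same order.

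Of the 33 genes, 21 were tested, and of these only Mest differed between the genotypes by the test used. Its locus is shown first. Mest, which encodes an endoplasmic-reticulum protein with an alpha/beta hydrolase fold, lies on the plus strand of chromosome 6, from 30723547 to 30748465 in mm10, and has 11 annotated transcripts. RefSeq places its starts at an upstream site and, further in, a downstream one. The bases just before each, up to the first annotated exon, are printed because the gene value sums transcripts from both. Some of the 11 annotated transcripts have other starts, and the value sums these too. Letters are on the plus strand of build GRCm38.p6, and capitals mark matches to CAGGTG or to the related CAGGTA, both forms of the E-box that ZEB1 is known to bind, or to TGCCGC, the core bound by the imprint-guarding factor ZFP57, each searched on both strands. The first run is chr6:30733256-30733453 and the second chr6:30737800-30738049.
Mest upstream start: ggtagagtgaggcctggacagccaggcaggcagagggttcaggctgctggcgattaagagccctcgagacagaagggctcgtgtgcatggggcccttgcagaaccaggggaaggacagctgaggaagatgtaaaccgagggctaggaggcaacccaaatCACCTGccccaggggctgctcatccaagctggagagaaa
Mest downstream start: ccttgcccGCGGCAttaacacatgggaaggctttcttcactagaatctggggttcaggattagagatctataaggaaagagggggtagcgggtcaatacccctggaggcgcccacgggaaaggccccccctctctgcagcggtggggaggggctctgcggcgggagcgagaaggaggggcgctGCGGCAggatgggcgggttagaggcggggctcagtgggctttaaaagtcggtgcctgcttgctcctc
The upstream run held 1 CAGGTG match and 4 CG pairs in 198 bases. The downstream run held 2 TGCCGC matches, no E-box of either form, and 14 CG pairs in 250 bases. The downstream start is the one from which, as background, the imprinted Mest transcript is made. Which start the fragments came from cannot be read from 1 value per gene.

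Intron sequence of Mest also holds Mir335, and an exon of the noncoding RNA H19 holds Mir675. Their mature forms from RefSeq are printed because each is carried by a gene described below; capitals mark the seed, bases 2 to 8, by which a miRNA recognises its targets. No 2 of these 4 share a seed.
mmu-miR-335-5p: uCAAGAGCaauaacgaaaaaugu
mmu-miR-335-3p: uUUUUCAUuauugcuccugacc
mmu-miR-675-5p: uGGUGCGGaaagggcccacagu
mmu-miR-675-3p: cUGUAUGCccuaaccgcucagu
The libraries do not measure mature miRNAs. The Mir335 locus (chr6:30741314-30741336 for the 5p arm) was at 1.43 and 0.679 FPKM in control libraries, against 0.383 and 0.486 FPKM in Zeb1-CKO libraries. Mir675 (chr7:142577112-142577133 for the 5p arm) was at 0.119, 0.267, 0.109 and 0.140 FPKM in the order control 1, control 2, Zeb1-CKO 1, Zeb1-CKO 2. Both sit below the level at which genes were tested.

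The 33 genes spanned from 0.0143 FPKM (Zim1) to 76.0 FPKM (Mest) as means over the 4 libraries. The mean was over 10 FPKM for 9 genes, 1 to 10 FPKM for 12, and below 1 FPKM for 12, of which 3 were under 0.1 FPKM. The 9 most abundant were, in order, Mest, Gnas, Grb10, Snrpn, Igf2, Nnat, Cdkn1c, Asb4 and Ndn. Neighbours in this order often had overlapping library values: Grb10 (20.1 to 24.8 FPKM) could not be separated from Snrpn (15.5 to 26.6 FPKM), nor Asb4 (9.43 to 15.9 FPKM) from Ndn (11.0 to 13.9 FPKM). Mest stood above 95.9% of the 13651 genes tested.

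**Figure D1:**
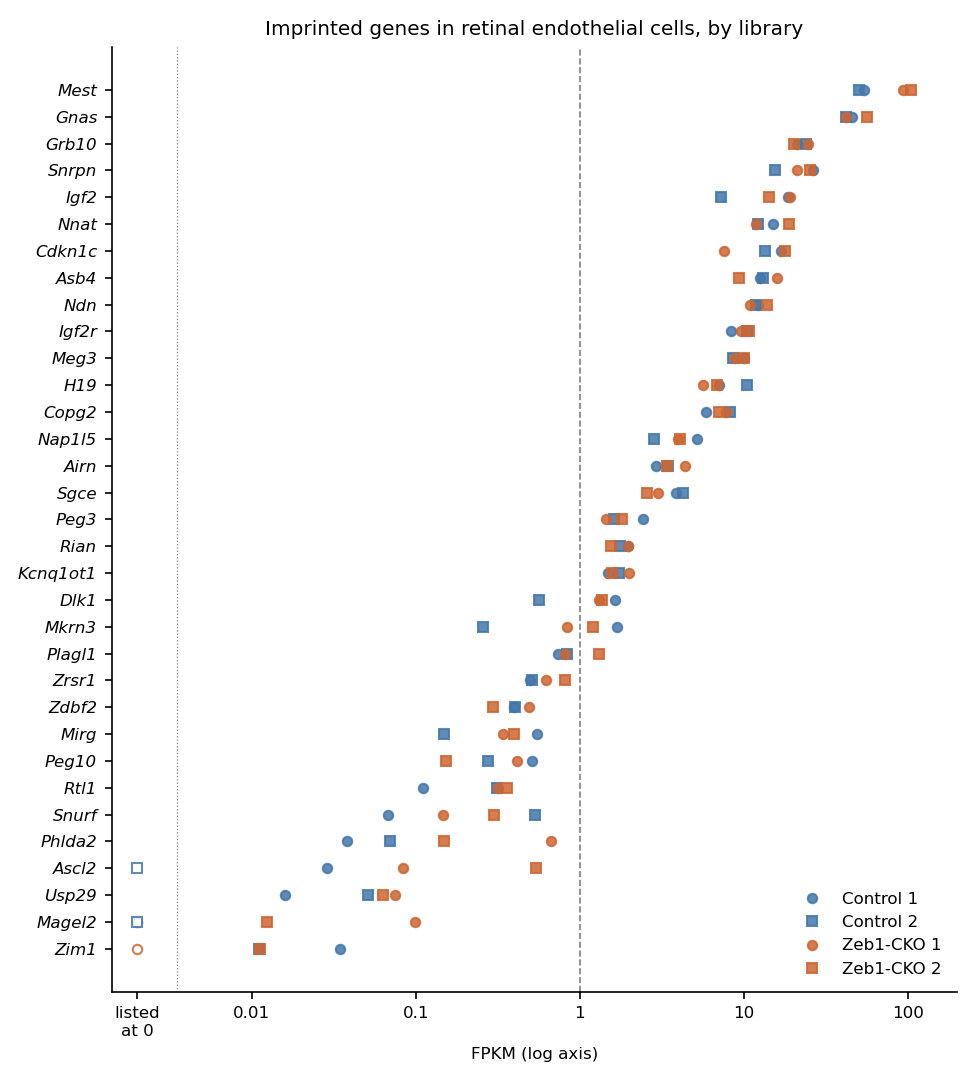
FPKM of each of the 33 imprinted genes in each library (log axis; blue, control; orange, Zeb1-CKO; circle, replicate 1; square, replicate 2), ordered by mean; the dashed line is the mean of 1 FPKM needed for testing and open symbols were listed at 0. Mest is the top row, with both orange symbols to the right of both blue ones, while Igf2, Dlk1 and Mkrn3 each have control 2 far to the left.

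Of the 33 genes, 21 reached a mean of 1 FPKM over the 4 libraries and were tested with limma on log2(FPKM + 1) in a fit across all 13651 such genes. The threshold was a Benjamini-Hochberg adjusted p under 0.05. Mest was higher in Zeb1-CKO cells, none was lower, and 20 did not pass; 2 of the 21 had an unadjusted p under 0.05, as had 17.9% of all genes tested. Over all genes tested, 3.13% passed, 2.23% as higher and 0.901% as lower, against 4.76% of the 21, so the share is near the background. Control and Zeb1-CKO values were fully apart for 3 of the 21, Mest (higher), H19 (lower) and Sgce (lower), or 14.3%, against 49.4% of all genes tested (27.1% higher, 22.3% lower). In 19 of the 21, replicates of at least 1 genotype differed by more than the 2 genotypes did on the log2(FPKM + 1) scale; over all genes tested this was 62.8%. The median log2 fold change of the 21 was 0.09, beside 0.02 over all genes tested, and 14 of the 21 values were positive. Without control 2, the median of the 21 was -0.08.

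**Figure D2:**
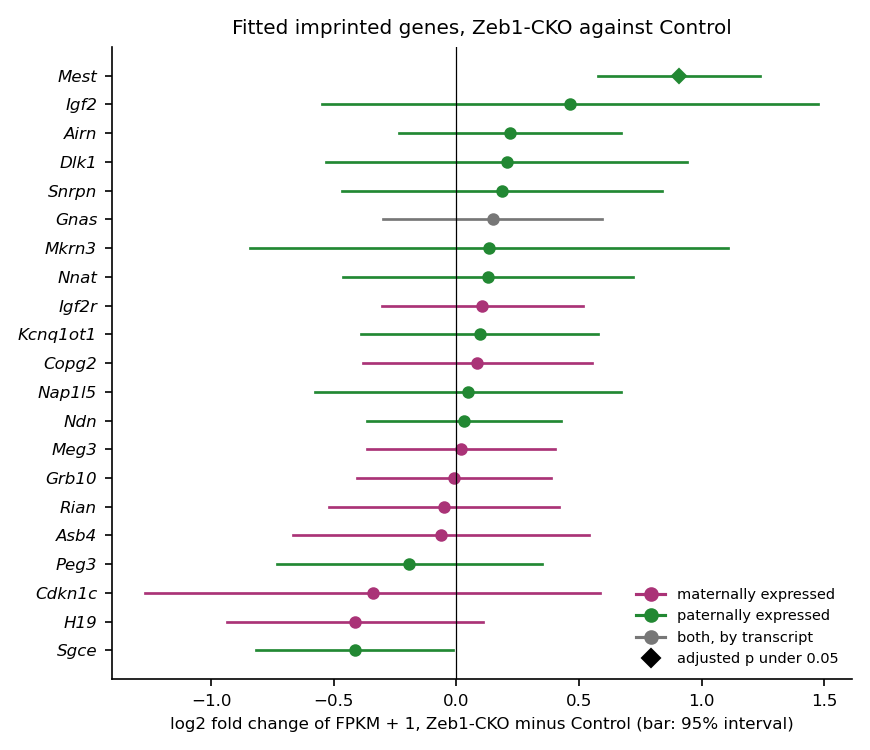
Log2 fold change of FPKM + 1 (Zeb1-CKO minus control) with its 95% interval from limma for the 21 tested genes, coloured by the parental copy known to be expressed. The diamond marks Mest at 0.91, and the other 20 points lie between -0.41 and 0.46.

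Mest was at 54.2 and 50.8 FPKM in control libraries, against 94.0 and 105 FPKM in Zeb1-CKO libraries. The groups did not overlap, and each Zeb1-CKO library was above each control by more than either pair of replicates differed. Mean levels were 52.5 ± 2.36 FPKM in control and 99.4 ± 7.65 FPKM in Zeb1-CKO (SD, n = 2 each), 1.89-fold higher. The log2 fold change was 0.91 (SE 0.13; 95% interval 0.58 to 1.24), with limma's adjusted p at 0.0302. Leaving out any 1 of the 4 libraries kept the log2 fold change between 0.83 and 0.99 and ended the call each time, with adjusted p of 0.0724 (without control 1), 0.0969 (without control 2), 0.125 (without Zeb1-CKO 1) and 0.153 (without Zeb1-CKO 2). The call also ended with no filter on low values (0.142), without the intensity trend (0.0513) and with the replicate block (0.0983). The pericyte, smooth-muscle, red-cell and myeloid sums given above were lower in both Zeb1-CKO libraries than in either control. The pigment-epithelium sum was higher (1.87 and 2.28 FPKM in control libraries, against 2.94 and 3.39 FPKM). Fibroblast markers moved both ways, 3 of the 6 tested up and 3 down. Pdgfra was at 25.8 and 22.9 against 37.8 and 37.6 FPKM, and Col3a1 at 19.3 and 26.4 against 12.7 and 13.7 FPKM. Of 6 tested markers of Müller glia and astrocytes, 4 were up and 2 down. Gfap was at 56.7 and 60.6 against 68.2 and 137 FPKM, and Glul at 71.9 and 64.8 against 44.9 and 45.3 FPKM. Of all these markers, 1 passed the test, the smooth-muscle gene Tagln, at 16.6 and 14.8 FPKM in control libraries, against 7.85 and 8.57 FPKM in Zeb1-CKO libraries (limma adjusted p = 0.0429). Their part in the result was not tested.

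**Figure D3:**
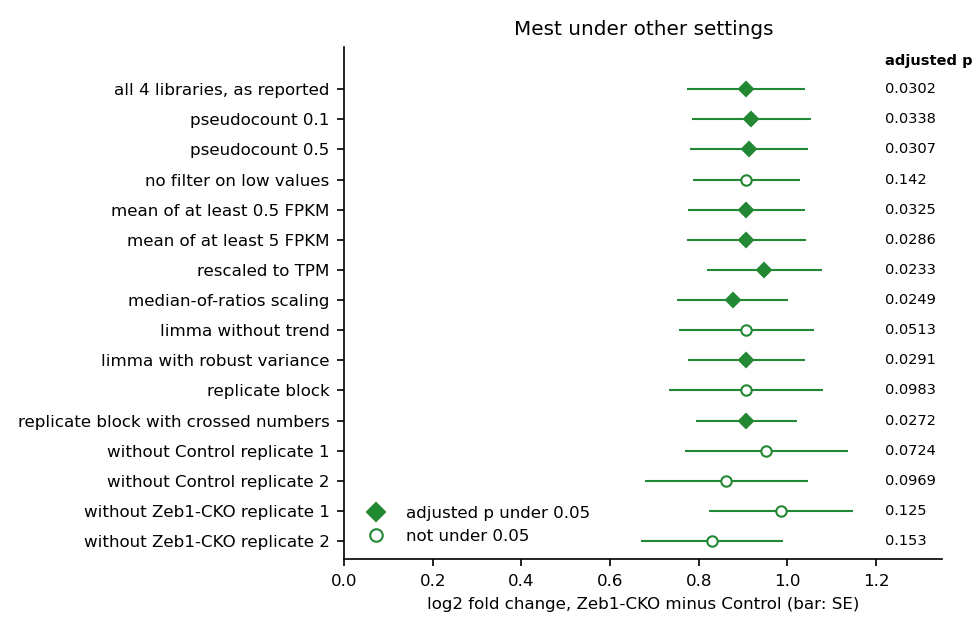
Log2 fold change of Mest with its SE under each setting, with limma's adjusted p at the right; filled diamonds are under 0.05. The values stay between 0.83 and 0.99, while the adjusted p runs from 0.0233 to 0.153.

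Copg2, which encodes a subunit of the COPI vesicle coat, ends tail to tail with Mest on the minus strand of chromosome 6 (30747554 to 30896794). The 2 genes share 912 exon bases, and these libraries do not mark strand, so reads in that stretch cannot be assigned to either gene for certain. Copg2 was at 5.87 and 8.21 FPKM in control libraries, against 7.83 and 7.07 FPKM in Zeb1-CKO libraries. Its Zeb1-CKO values lay between the controls, with a log2 fold change of 0.09 (95% interval -0.38 to 0.55; adjusted p = 0.853). The ratio of Mest to Copg2 was 9.23 and 6.19 in control libraries, against 12.01 and 14.8 in Zeb1-CKO libraries.

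**Figure D4:**
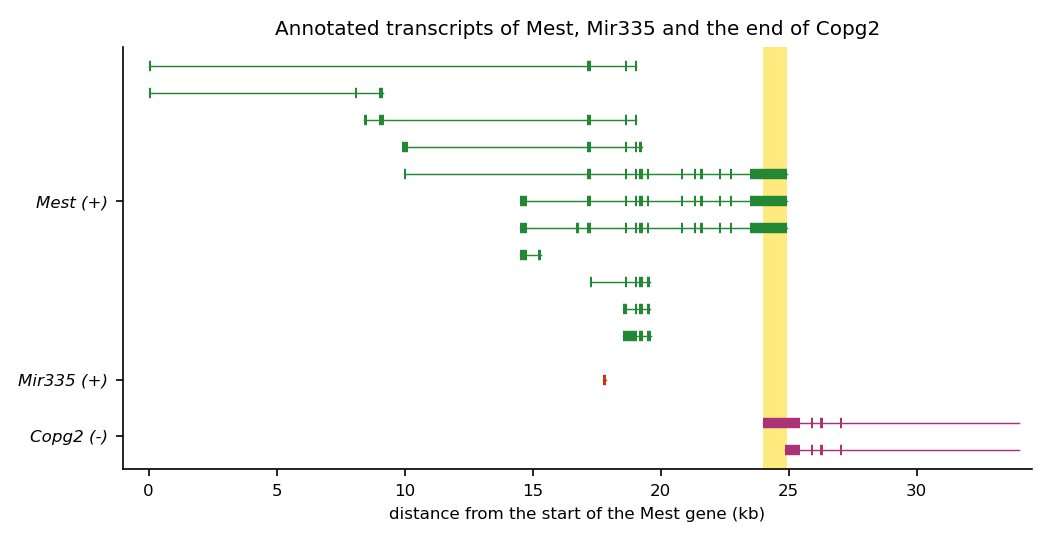
Annotated transcripts of Mest, Mir335 and the end of Copg2, in kb from the start of the Mest gene (thick, exons; thin, introns; the sign is the strand). The yellow band is the stretch of 912 exon bases shared by Mest and Copg2, and Mir335 lies between Mest exons.

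H19 and Igf2 share an enhancer region on chromosome 7, used for H19 on the maternal copy and for Igf2, the growth factor IGF2, on the paternal copy. H19, a noncoding RNA (142575529 to 142578143), was at 7.12 and 10.5 FPKM in control libraries, against 5.69 and 6.85 FPKM in Zeb1-CKO libraries. Both Zeb1-CKO values were below both controls, but the log2 fold change of -0.41 (95% interval -0.94 to 0.11) did not pass, with an adjusted p of 0.379. Igf2 (142650766 to 142666816) was at 18.6 and 7.27 FPKM in control libraries, against 19.3 and 14.2 FPKM in Zeb1-CKO libraries. Control 2 stood apart as the low library, and the groups overlapped (log2 fold change 0.46, 95% interval -0.55 to 1.48; adjusted p = 0.614). Without control 2 the value for Igf2 was -0.16. Igf2 exceeded H19 in 3 libraries, by 2.61 (control 1), 3.39 (Zeb1-CKO 1) and 2.07 times (Zeb1-CKO 2), but not in control 2, where the ratio was 0.696. Igf2 shares 3596 exon bases with the read-through gene Gm49394 on the same strand, which was listed at 0 in all 4 libraries.

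Igf2r encodes the receptor that takes up IGF2 for breakdown in lysosomes, and Airn is the paternal noncoding RNA that silences it in cis. Igf2r was at 8.36 and 10.5 FPKM in control libraries, against 9.63 and 10.8 FPKM in Zeb1-CKO libraries (log2 fold change 0.11, adjusted p = 0.786). Airn was at 2.93 and 3.46 against 4.41 and 3.39 FPKM (0.22, adjusted p = 0.592). Both were thus listed above 0 in every library, at an Igf2r to Airn ratio of 2.19 to 3.17, and both overlapped between the genotypes. The span of Airn overlaps that of Igf2r on the opposite strand, with no exon base shared. As these libraries do not mark strand, reads of unspliced Igf2r RNA there could be counted as Airn.

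Grb10 encodes an adaptor that dampens insulin and IGF receptor signalling, and it was the third most abundant of the 33. Its values were 21.1 and 23.9 FPKM in control libraries, against 24.8 and 20.1 FPKM in Zeb1-CKO libraries. The log2 fold change was -0.01 (95% interval -0.40 to 0.39; adjusted p = 0.982), so a change of more than about 0.4 on this scale in either direction lies outside the interval. Plagl1, a zinc-finger gene linked to the regulation of other imprinted genes, stayed just under the level for testing, at 0.736 and 0.834 against 0.814 and 1.32 FPKM. Just inside that level, at a mean of 1.00 FPKM, was Mkrn3.

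The Kcnq1ot1 domain on chromosome 7 holds a paternal noncoding RNA and the maternal genes it silences. Kcnq1ot1 itself was at 1.49 and 1.73 FPKM in control libraries, against 2.01 and 1.57 FPKM in Zeb1-CKO libraries (adjusted p = 0.841). Cdkn1c, the cell-cycle inhibitor p57, was at 16.9 and 13.5 FPKM in control libraries, against 7.55 and 17.9 FPKM in Zeb1-CKO libraries. Zeb1-CKO 1 was the low library and the groups overlapped (log2 fold change -0.34, 95% interval -1.27 to 0.59; adjusted p = 0.692), and without it the value was 0.23. Phlda2, a pleckstrin-homology gene that limits placental growth, was at 0.0380 and 0.0701 FPKM in control libraries, against 0.666 and 0.148 FPKM in Zeb1-CKO libraries. Ascl2, a basic helix-loop-helix factor of the trophoblast, was listed at 0 in control 2, at 0.0287 FPKM in control 1, and at 0.0842 and 0.539 FPKM in Zeb1-CKO libraries. Both genes were too low to be tested.

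Kcnq1, the potassium channel gene in whose introns Kcnq1ot1 lies on the opposite strand, is imprinted too but is not among the 33. It was at 14.1 and 14.6 FPKM in control libraries, against 24.2 and 22.0 FPKM in Zeb1-CKO libraries. The groups did not overlap, but the difference (log2 fold change 0.65, SE 0.13) was not called by limma (adjusted p = 0.0699). Only 121 exon bases are shared by the 2 genes. Strand is not marked, so reads of unspliced Kcnq1 RNA could be counted as Kcnq1ot1.

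**Figure D5:**
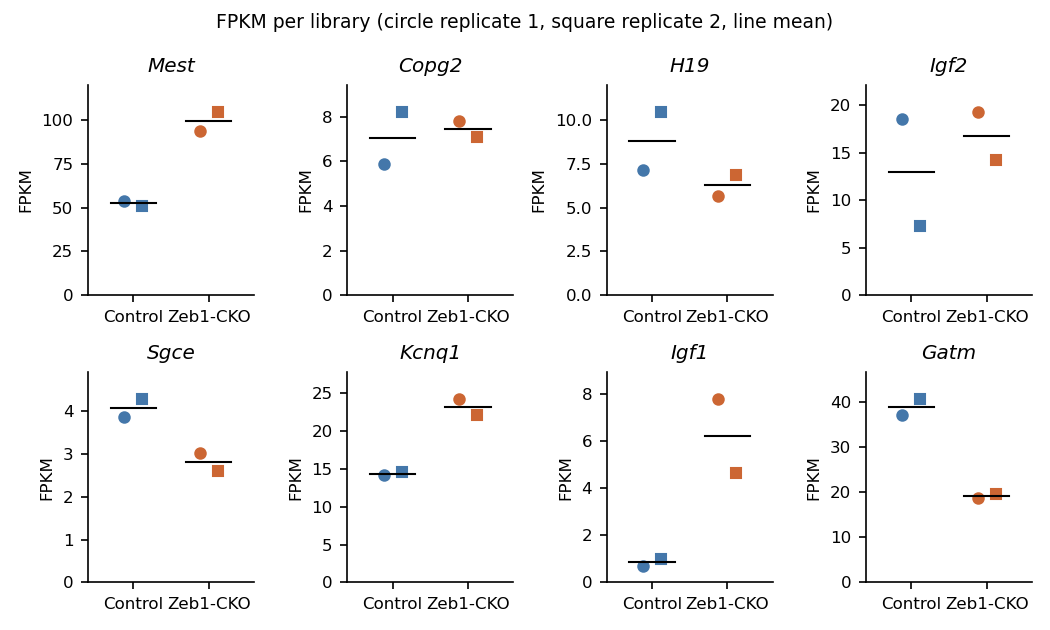
FPKM in each library for Mest, Copg2, H19, Igf2, Sgce and the related genes Kcnq1, Igf1 and Gatm (linear axes from 0; circle, replicate 1; square, replicate 2; line, mean of the genotype). Controls and Zeb1-CKO libraries are apart in Mest, H19, Sgce, Kcnq1, Igf1 and Gatm and overlap in Copg2 and Igf2.

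The Dlk1-Dio3 domain on chromosome 12 makes Meg3, Rian and Mirg, noncoding RNAs of the maternal copy that carry many small RNAs, and Dlk1 and Rtl1 from the paternal copy. Meg3 was at 10.1 and 8.57 FPKM in control libraries, against 8.85 and 10.1 FPKM in Zeb1-CKO libraries (log2 fold change 0.02, 95% interval -0.36 to 0.40; adjusted p = 0.960). Rian was at 1.96 and 1.76 against 1.97 and 1.56 FPKM (adjusted p = 0.916), and Mirg, the most distal, at 0.551 and 0.148 against 0.342 and 0.398 FPKM. Their level thus fell along the domain, Meg3 being 5.17 times Rian and 26.1 times Mirg in means over the 4 libraries. The order Meg3, Rian, Mirg was kept in each library.

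Dlk1, a membrane ligand related to Notch ligands, was at 1.64 and 0.562 FPKM in control libraries, against 1.31 and 1.37 FPKM in Zeb1-CKO libraries (adjusted p = 0.769). Rtl1, a retrotransposon-derived gene of the placental vessels, was at 0.111 and 0.311 against 0.317 and 0.359 FPKM. Of 57 miRNA hairpins that RefSeq places between the start of Meg3 and the end of Mirg, 5 were above 0 in all 4 libraries, 25 were listed at 0 in all 4, and the highest value was 5.43 FPKM. Rtl1 shares exon bases with 6 miRNA genes on the opposite strand, all listed at 0.

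Peg3 and Usp29, paternally expressed genes on chromosome 7, start in opposite directions from a short shared interval. The bases between their GENCODE starts are printed because the 2 genes share this promoter yet differ in level; they hold none of the motifs searched and 5 CG pairs in 146 bases (plus strand, chr7:6730432-6730577, GRCm38.p6).
Peg3-Usp29 shared promoter: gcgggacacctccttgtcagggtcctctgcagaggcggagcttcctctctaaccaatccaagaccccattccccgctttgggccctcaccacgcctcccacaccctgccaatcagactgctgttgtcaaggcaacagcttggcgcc
Peg3, a zinc-finger gene, was at 2.42 and 1.62 FPKM in control libraries, against 1.44 and 1.82 FPKM in Zeb1-CKO libraries (log2 fold change -0.19, adjusted p = 0.703). Usp29, which encodes a ubiquitin-specific protease, was at 0.0160 and 0.0509 against 0.0753 and 0.0627 FPKM, and Peg3 was 35.6 times as abundant in means over the 4 libraries. The maternal zinc-finger gene Zim1 was lowest of the 33, at 0.0347 and 0.0110 FPKM in the controls, listed at 0 in Zeb1-CKO 1, and at 0.0113 FPKM in Zeb1-CKO 2.

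In the domain around Peg10 on chromosome 6, Sgce and Peg10 also start close together in opposite directions. Sgce, the epsilon-sarcoglycan gene, was at 3.85 and 4.28 FPKM in control libraries, against 3.02 and 2.59 FPKM in Zeb1-CKO libraries. The groups did not overlap, but the log2 fold change of -0.41 (95% interval -0.82 to -0.01) had an adjusted p of 0.267 and did not pass. Peg10, a retrotransposon-derived gene needed in the placenta, was at 0.515 and 0.274 against 0.414 and 0.154 FPKM. Sgce was 10.1 times as abundant as Peg10 in means over the 4 libraries. Asb4, a maternally expressed gene for a ubiquitin-ligase subunit known from the embryonic vasculature, was more abundant than both, at 12.5 and 13.2 against 15.9 and 9.43 FPKM (adjusted p = 0.921). Its Zeb1-CKO libraries lay on either side of the controls.

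The Snrpn-Ndn domain on chromosome 7 corresponds to the human Prader-Willi region, and its genes differed in level by orders of magnitude in the same libraries. Snrpn, a spliceosomal core protein gene, was at 26.6 and 15.5 FPKM in control libraries, against 21.3 and 25.6 FPKM in Zeb1-CKO libraries (log2 fold change 0.19, adjusted p = 0.762). Snurf was listed at 0.0679 and 0.534 against 0.146 and 0.300 FPKM, but all 216 of its exon bases are also exon bases of Snrpn on the same strand, so its value is a split made by the quantifier and is uncertain. Ndn, the growth-restraining MAGE-family gene necdin, was at 12.2 and 11.9 against 11.0 and 13.9 FPKM (log2 fold change 0.03, 95% interval -0.36 to 0.43; adjusted p = 0.940).

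Mkrn3, a ring-finger gene that holds back puberty, was at 1.70 and 0.256 FPKM in control libraries, against 0.843 and 1.21 FPKM in Zeb1-CKO libraries (adjusted p = 0.895). At the estimated depths and its length of 2547 bases, these values stand for about 88.9, 7.31, 47.1 and 51.6 fragments, so control 2 is the thin measurement. Magel2, the other MAGE-family gene, was listed at 0 in both controls and was at 0.0997 and 0.0125 FPKM in Zeb1-CKO libraries, or about 10.1 and 0.969 fragments. No difference in Magel2 can be read at this depth.

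Gnas, the stimulatory G-protein alpha subunit gene on chromosome 2, was second in abundance, at 46.1 and 42.0 FPKM in control libraries, against 42.0 and 56.7 FPKM in Zeb1-CKO libraries (log2 fold change 0.15, adjusted p = 0.724). Its antisense RNA Nespas, which shares 988 exon bases with it, was at 0.878 and 0.834 against 1.44 and 1.97 FPKM (adjusted p = 0.270).

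Nnat, Nap1l5 and Zrsr1 each lie inside the span of a host gene on the opposite strand. Without strand marks, reads of unspliced host RNA could be counted with them. Nnat, which encodes the small membrane protein neuronatin, was at 15.1 and 12.3 FPKM in control libraries, against 11.9 and 18.8 FPKM in Zeb1-CKO libraries (adjusted p = 0.821). Its host Blcap was at 15.3 and 14.3 against 14.2 and 18.9 FPKM, with no exon base shared. Nap1l5, a nucleosome assembly protein relative, was at 5.18 and 2.83 against 3.98 and 4.08 FPKM (adjusted p = 0.941), and its host Herc3 at 1.44 and 1.41 against 2.17 and 1.85 FPKM.

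Zrsr1, related to a splicing factor, was at 0.4996 and 0.508 FPKM in control libraries, against 0.620 and 0.815 FPKM in Zeb1-CKO libraries. Its host Commd1 was at 8.16 and 9.18 against 8.94 and 8.56 FPKM, and the pair share 412 exon bases. The read-through gene Gm28048, which also spans Zrsr1, was at 56.3 FPKM in control 1 and 67.0 FPKM in Zeb1-CKO 2 but at 0.00493 and 0.00855 FPKM in control 2 and Zeb1-CKO 1. Zdbf2, a zinc-finger gene on chromosome 1, was at 0.396 and 0.401 against 0.490 and 0.297 FPKM.

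Other annotated genes that share exon bases with the 33 were low. Gm20721 (1469 bases with Gnas) was at 0.111 to 0.281 FPKM, Gm44732 (625 with Cdkn1c) at 0 to 0.433 FPKM, Gm38393 (589 with Snrpn) at 0 to 0.213 FPKM and Igf2os (98 with Igf2) at 0 to 0.0808 FPKM. Zim3 (2582 with Usp29) was above 0 in control 1 alone, at 0.00893 FPKM. Gm26906 (1228 with Meg3) and Gm18908 (148 with Snrpn) were listed at 0 in all 4 libraries. The remaining 39 are small RNA genes, none above 0.846 FPKM in any library.

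Control 1 and Zeb1-CKO 2 were the highest libraries for 10 of the 21 tested genes, or 47.6%, against 17.4% of all genes tested: Cdkn1c, Dlk1, Gnas, Meg3, Mkrn3, Nap1l5, Ndn, Nnat, Peg3 and Snrpn. This grouping was noticed after the values were seen. The 10 neuron markers summed to 16.7 FPKM in control 1 and 16.4 FPKM in Zeb1-CKO 2, and to 8.88 FPKM in control 2 and 9.67 FPKM in Zeb1-CKO 1. Single neuron markers differed in this: 5 of the 10 had control 1 and Zeb1-CKO 2 on top. The most abundant of them, Snap25, was at 4.81 and 1.14 FPKM in control 1 and 2 and at 3.22 and 6.04 FPKM in Zeb1-CKO 1 and 2. Tubb3 followed, at 2.17 and 2.06 FPKM in control 1 and 2 and 1.73 and 3.01 FPKM in Zeb1-CKO 1 and 2. Stmn2, named after its values were seen, went otherwise, at 1.81, 1.17, 0.720 and 0.402 FPKM in that order. Rod and cone markers also summed highest in control 1 and Zeb1-CKO 2, at 89.0 and 50.8 FPKM. Their sums were 9.72 FPKM in control 2 and 44.2 FPKM in Zeb1-CKO 1. Marker sums of amacrine and ganglion cells went otherwise, with control 2 (23.5 FPKM) and Zeb1-CKO 2 (28.2 FPKM) on top. The part of RNA from any of these cell types in the imprinted genes' values was not tested.

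By parental copy, the 12 paternally expressed genes tested had log2 fold changes from -0.41 to 0.91 with a median of 0.13, and the 8 maternally expressed genes had values from -0.41 to 0.11 with a median of -0.03. Positive values were found for 10 of the 12 and 3 of the 8, beside 52.8% of all genes tested. The paternal values rested on control 2: without it 4 of the 12 were positive, with a median of -0.17, and 3 of the 8 maternal values, with a median of -0.06. All intervals but that of Mest and, narrowly, that of Sgce included 0. Of the 20 genes that did not pass, 17 had a 95% interval inside -1 to 1, so a doubling or halving of FPKM + 1 lay outside it. The 3 others were Igf2, Cdkn1c and Mkrn3.

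The 12 genes below the level for testing were Ascl2, Phlda2, Mirg, Rtl1, Zim1, Usp29, Plagl1, Snurf, Magel2, Peg10, Zdbf2 and Zrsr1. Their single-library values ran from 0 to 1.32 FPKM, and 3 of them were listed at 0 in at least 1 library. In 6 of the 12 both Zeb1-CKO values were above both controls, and in none were both below. Among all 21897 genes that were under the level for testing and at least as high as Zim1, these shares were 14.3% and 14.5%. That set was not matched to the 12 genes for level, and among genes tested the shares were 27.1% and 22.3%. Fragments were estimated for those with 1 annotated transcript: about 0 to 10.1 per library for Magel2, 0.302 to 1.3 for Snurf and 14.5 to 44.2 for Rtl1. No test was made.

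Promoter windows of 300 bases (250 before to 50 after each RefSeq start) were available for 28 of the 33 genes, 43 windows in all. CAGGTG or its reverse complement was in 8 of the 43 (18.6%), against 20.2% of all 32851 windows. CAGGTA was in 6 (13.95%), against 11.96% of all. TGCCGC was in 13 (30.2%), in windows of Copg2, Grb10, Igf2, Meg3, Mest, Nap1l5, Nnat, Plagl1, Snrpn, Snurf, Zdbf2 and Zim1, against 11.6% of all. TGCCGC itself holds a CG pair, and the share was not matched for CG pairs. The median over all windows was 7 CG pairs. Of the genes just named, the windows of Copg2, Nap1l5, Nnat, Plagl1 and Zim1 held 17 to 26, and that of Snurf held 7. Counts for the others varied by window. Those of Snrpn held 2 to 7, of Igf2 2 to 24 and of Mest 8 to 17. Those of Meg3 held 1 and 13, of Grb10 9 and 45 and of Zdbf2 15 and 38. Windows of 1 gene can overlap, Snrpn and Snurf have a window in common, and a match describes letters only. The E-box share was thus close to that of all promoters for either form.

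Other genes held to be imprinted in at least some mouse tissue, or hosting or neighbouring such genes, were followed with a list of 55, of which 33 were tested. Gatm, the enzyme that makes the creatine precursor, fell, and none rose; 6 had an unadjusted p under 0.05. That is 1 of 33 called, beside 3.13% of all genes tested, and so near the background. Gatm was at 37.1 and 40.6 FPKM in control libraries, against 18.7 and 19.5 FPKM in Zeb1-CKO libraries, with a log2 fold change of -0.99 (SE 0.13; adjusted p = 0.0229). Leaving out each library in turn gave -1.05 to -0.92 and ended the call, as did no filter on low values (adjusted p = 0.101) and the replicate block (0.0771). The list's median log2 fold change was 0.03, beside 0.02 over all genes tested.

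Regulators that maintain imprints or DNA methylation were followed with a list of 32, of which 30 were tested. By limma none passed, and 3 had an unadjusted p under 0.05, beside 17.9% of all genes tested. These 3, named after their values were seen, were higher without overlap in Zeb1-CKO libraries. Zfp57 was at 3.46 and 3.82 FPKM in control libraries, against 5.01 and 9.18 FPKM (adjusted p = 0.230). Uhrf1, which helps copy methylation at replication, was at 5.63 and 4.30 against 8.80 and 6.64 FPKM (adjusted p = 0.237). Dnmt3b, a DNA methyltransferase, was at 3.69 and 4.10 against 5.79 and 5.67 FPKM (adjusted p = 0.187). Smc1a, a cohesin subunit, was at 23.6 and 24.6 FPKM in control libraries, against 23.5 and 22.9 FPKM in Zeb1-CKO libraries. Trim28, the co-repressor recruited by ZFP57 to imprinted control regions, was at 20.1 and 18.9 against 19.05 and 19.1 FPKM. The list's median log2 fold change was -0.02.

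Of 31 partners of imprinted gene products, 27 were tested, 1 rose and 1 fell, and 8 had an unadjusted p under 0.05, beside 3.13% called and 17.9% at that unadjusted p over all genes tested. Igf1, the ligand that shares the IGF1 receptor with IGF2, was at 0.714 and 0.982 FPKM in control libraries, against 7.80 and 4.65 FPKM in Zeb1-CKO libraries. The groups did not overlap, and its log2 fold change was 1.94 (SE 0.25; adjusted p = 0.0224). Without control 2 it was still called (adjusted p = 0.0414), and it was not without control 1 (0.0540), Zeb1-CKO 1 (0.118) or Zeb1-CKO 2 (0.0611), nor with no filter on low values (0.153). The receptor genes Igf1r and Insr, named here after their values were seen, were at 7.89 to 10.4 FPKM and 8.76 to 18.3 FPKM, overlapped between genotypes and did not pass (adjusted p = 0.749 and 0.922).

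Cdkn1a, the cell-cycle inhibitor p21 and a relative of Cdkn1c, fell from 157 and 130 FPKM to 77.1 and 81.3 FPKM (log2 fold change -0.84, adjusted p = 0.0494). Its call was lost in 11 of 15 other settings, each library left out among them, at adjusted p up to 0.228. The list's median log2 fold change was -0.07.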

How the data were processed

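RNA of 100 sorted cells per library was amplified with the SMART-Seq v4 kit, per the labels' protocols, which does not mark strand. The authors deposited FPKM per gene, with unit read from the values and the tools; per the submitters' processing notes these were Trimmomatic 0.36, HISAT2 2.1.0 and StringTie 1.3.3, with build mm10. Their settings and the annotation used are not stated in the labels. FPKM are not counts, so no count test was run, and FPKM of overlapping transcripts are divided by the quantifier.

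Members were matched by gene name. Spans come from GENCODE M21, where 53229 of 54446 identifiers had the same version and start. Depth was estimated as the step between low values of single-transcript genes longer than 600 bases: 20.6 and 11.2 M fragments in the controls, 22.0 and 16.8 M in Zeb1-CKO. Between 21.1% and 28.5% of values under 400 (FPKM times length) lay within 0.02 of a whole step, against 4% at random. The step was chosen, within a narrow range, to make this share largest. The 4% holds for a step fixed beforehand, so it understates the random share. Reads carry no molecular identifiers.

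Genes averaging 1 FPKM or more were tested on log2(FPKM + 1) with limma 3.58.1 in R 4.3.3, using a variance trend by intensity and a single genotype term; adjustment ran over all 13651 genes. The log2(FPKM + 1) scale understates changes of low genes. The script was tested on simulated data. Named were the 33 genes, exon-sharing genes other than most small RNA genes, host genes, called list genes (else the 2 most abundant), the targeted gene and markers. Parental copies come from general knowledge. Members and lists were chosen with earlier results of these data known. Alternatives were other pseudocounts, filters, scalings and variance models, a replicate block and each library left out. Sequences come from RefSeq (GRCm38.p6). Figures were drawn with matplotlib 3.10.9.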

Additional observations from a re-analysis of the deposited data

How the results depend on the processing

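Of 15 other settings, 14 were planned and 1, a block with crossed numbers, was chosen after seeing the data. Mest kept its direction in all 15, at log2 fold changes of 0.83 to 0.99, and passed limma's threshold in 8. The count of imprinted genes called higher was 0 with no filter on low values, without the intensity trend, with the replicate block and without any 1 library; none was called lower in any setting. Over all genes, 304 were higher and 123 lower. These counts were 70 and 15 with no filter, 155 and 38 with the replicate block, and 44 to 224 and 15 to 59 when 1 library was left out; with a mean of at least 5 FPKM, 169 were higher. The median of the tested imprinted genes ranged from -0.0849 to 0.103 when 1 library was left out. Called genes of the other imprinted list numbered 0 with no filter, with the replicate block and without any 1 library. Among partners the count was 1 with a pseudocount of 0.1 or 0.5, a mean of at least 0.5 or of at least 5 FPKM, TPM scaling, no trend or the replicate block, 0 with no filter, and 0 to 1 when 1 library was left out.

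Deviations from the genotype mean in control 1 and Zeb1-CKO 1 had r = -0.118 over 13651 genes. With 2 libraries per genotype, the value for Zeb1-CKO 2, r = 0.118, is the same figure with its sign turned. Libraries of the same number thus did not deviate together, but this cannot exclude that they were paired. With crossed numbers 306 genes were higher and 149 lower.

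Among genes that did not pass, the sign of the log2 fold change turned when 1 library was left out in 16 of them, with these ranges: Asb4 -0.41 to 0.28, Cdkn1c -0.91 to 0.23, Copg2 -0.13 to 0.30, Dlk1 -0.17 to 0.58, Gnas -0.0649 to 0.36, Grb10 -0.15 to 0.13, Igf2 -0.16 to 1.08, Igf2r -0.0451 to 0.26, Kcnq1ot1 -0.0190 to 0.21, Meg3 -0.0849 to 0.12, Mkrn3 -0.42 to 0.68, Nap1l5 -0.30 to 0.39, Ndn -0.12 to 0.19, Nnat -0.18 to 0.44, Rian -0.16 to 0.0568 and Snrpn -0.18 to 0.56. Grb10 was also 0.0224 with TPM scaling, and Meg3 -0.00871 with median-of-ratios scaling. The cause was not tested. H19, Sgce, Peg3 and Airn kept their sign in every setting. With 2 libraries per genotype and 100 cells each, 7 of the 20 uncalled genes had an interval within a 1.5-fold change, and control 2, the shallowest, gives the least precise low values.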
